A study of Homo sapiens with 30 samples.

Results

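ANKRD1 and 8 other target genes of the YAP/TEAD transcription complex were followed in HEK293 cells that expressed a mistranslation reporter with or without a missense-correcting tRNA (mc-tRNA). The 9 genes, ANKRD1, CCN1, CCN2, AMOTL1, AMOTL2, LATS2, AJUBA, CRIM1 and AXL, were chosen by name as YAP/TEAD targets, because ANKRD1 had been seen lower with the Ser and higher with the Cys mc-tRNA. Earlier results of these data were known when the 9 genes were chosen. The files held all 9 of them among 58278 gene identifiers, and all 9 passed the filter on low counts that left 22321 genes for testing.

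HEK293 is an established human embryonic kidney line, and all libraries came from wild-type cells transfected with 1 plasmid that encoded an EGFP(mutant)-mCherry fusion. There were 10 groups of 3 libraries, described as independent replicates: EGFP(R65) with Ser-tRNA_Arg(CCG) and EGFP(R65) alone, EGFP(R96Q) with Arg-tRNA_Gln(CUG) and EGFP(R96Q) alone, EGFP(R96C) with Arg-tRNA_Cys(GCA) and EGFP(R96C) alone, EGFP(R96H) with Arg-tRNA_His(GUG) and EGFP(R96H) alone, and EGFP(R96W) with Arg-tRNA_Trp(CCA) and EGFP(R96W) alone. An mc-tRNA name gives the amino acid it carries, the amino acid whose codon it reads and, in brackets, its anticodon. The mCherry-positive cells were sorted 48 hours after transfection, so each library is a mixed population of transfected cells that overexpress a reporter. The question was how each mc-tRNA affected mRNA levels within its own reporter.

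YAP and TAZ are transcriptional co-activators that enter the nucleus when the Hippo kinases are inactive and bind DNA through TEAD proteins. Active LATS kinases phosphorylate YAP and TAZ, which holds them in the cytoplasm. Several targets feed back on the pathway: LATS2 is one of these kinases, AMOTL1 and AMOTL2 are angiomotins that hold YAP at junctions, and AJUBA is a LIM protein that restrains LATS. CCN1 and CCN2 are secreted matricellular proteins, long used with ANKRD1, a nuclear and sarcomeric ankyrin-repeat protein, as readouts of YAP activity. AXL is a receptor tyrosine kinase, and CRIM1 is a transmembrane protein with cysteine-rich repeats that binds bone morphogenetic proteins.

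The promoters are shown first because YAP has no DNA-binding domain and reaches these genes through the TEAD motif. RefSeq promoter windows (GRCh38.p14, 250 bases before to 50 after a start site) matched 7 of the 9 genes, with 10 windows in all. CCN1 and CRIM1 had no entry. The letters GGAATG, or CATTCC where the motif lies on the other strand, stood in 6 of the 10 windows, which belonged to 6 genes. Of all 35116 promoters in the table, 14.03% held the motif, 1.37% held it at least 2 times and 0.128% at least 3 times. The 250 bases upstream of ANKRD1 (chr10:90921088-90921337, minus strand) and CCN2 (chr6:131951373-131951622, minus strand) are printed 5′ to 3′ with the motif in capitals, because ANKRD1 held 2 copies and CCN2 held 3.
ANKRD1: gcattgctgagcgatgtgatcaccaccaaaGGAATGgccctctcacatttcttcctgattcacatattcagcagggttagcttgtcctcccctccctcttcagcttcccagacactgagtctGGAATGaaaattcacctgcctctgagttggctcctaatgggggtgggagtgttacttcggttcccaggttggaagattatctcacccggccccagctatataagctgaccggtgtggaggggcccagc
CCN2: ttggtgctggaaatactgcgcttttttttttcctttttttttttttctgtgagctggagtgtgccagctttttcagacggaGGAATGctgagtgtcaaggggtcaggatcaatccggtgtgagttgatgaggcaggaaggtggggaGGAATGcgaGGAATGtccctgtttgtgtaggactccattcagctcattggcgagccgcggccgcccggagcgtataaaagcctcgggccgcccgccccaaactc
For the genes with a single copy, 26 bases around it are printed, from LATS2 (chr13:21061562-21061587, minus strand), the first AMOTL2 window (chr3:134374501-134374526, minus strand), the first AJUBA window (chr14:22976886-22976911, minus strand) and the second AXL window (chr19:41226533-41226558, plus strand). The AMOTL2 and AXL copies read CATTCC on the gene's strand.
LATS2: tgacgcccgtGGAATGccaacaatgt
AMOTL2: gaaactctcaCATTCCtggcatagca
AJUBA: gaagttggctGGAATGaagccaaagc
AXL: gactttgcacCATTCCactccctccg

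The ANKRD1 copies lay at bases -220 to -215 and -128 to -123 from the RefSeq start, the second inside the longer gene span that GENCODE 29 gives. In CCN2 they lay at -169 to -164, -104 to -99 and -95 to -90. The LATS2 copy was downstream of the RefSeq start, at bases 10 to 15, but upstream of the gene span that GENCODE 29 gives. The AMOTL2, AJUBA and AXL windows with a copy lay inside the GENCODE 29 gene spans, not at the outer starts of these genes. Of the 7 genes with a window, only ANKRD1 matched a loose AP-1 pattern, TGANTCA, where N is any base (at -195 to -189). Its letters there are TGATTCA, with T at the free base, and the pattern stood in 7.71% of all promoters. ANKRD1 was also the only 1 with the core of a heat shock element (GAANNTTC, at -123 to -116, present in 6.77%). The heat shock element letters share 1 base with the second TEAD copy. As patterns with free bases, both read the same on either strand, but the ANKRD1 letters TGATTCA do not. The AMOTL1 window and the remaining windows of AMOTL2, AJUBA and AXL held none of the 3 motifs. These letter matches describe the windows only.

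**Figure D1:**
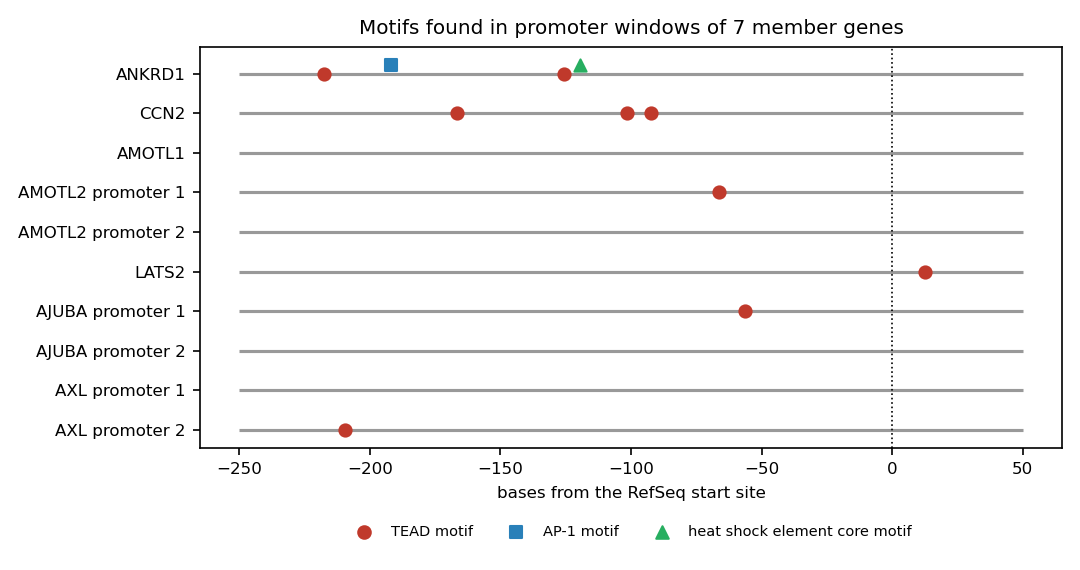
Positions of the TEAD, AP-1 and heat shock element motifs in the 10 RefSeq promoter windows of 7 member genes, in bases from the start site. CCN2 held 3 TEAD motifs and ANKRD1 held 2, and matches to the loose AP-1 pattern TGANTCA and to the heat shock element core were found in ANKRD1 only.

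The libraries held 39017548 to 55446962 gene counts. Levels are given as CPM, the per-million count after TMM scaling of the library totals, and 3 counts, the most that a count of 0 allows, correspond to 0.0541 to 0.0769 CPM before that scaling. A gene is called when its Benjamini-Hochberg adjusted p from the edgeR quasi-likelihood fit over all 22321 genes is under 0.05. The 6 EGFP(R65) libraries stood apart from the 24 EGFP(R96) libraries on the first principal component (41.9% of the variance, -145.7 to -94.4 against -9.34 to 53.1) and had 0 counts of the ERCC spike-in sequences, against 10 to 106. Each mc-tRNA is therefore read within its own reporter. All 6 HEK293 markers looked at (PAX2, NEFL, NEFM, VIM, KRT8, KRT18) were above 1 CPM in every group.

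ANKRD1 (ENSG00000148677.6; chromosome 10, 90912096 to 90921276, minus strand, GRCh38) varied far more than the other members. It had 1.63, 2.02 and 1.14 CPM with Ser-tRNA_Arg(CCG), against 15.3, 14.1 and 11.3 CPM with EGFP(R65) alone. With Arg-tRNA_Cys(GCA) it had 34.9, 35.3 and 32.7 CPM, against 1.40, 1.32 and 1.39 CPM with EGFP(R96C) alone. Neither pair of groups overlapped, and the gene was on opposite sides of its reporter in these 2 comparisons, by a log2 fold change of -3.09 ± 0.30 (SE) with Ser-tRNA_Arg(CCG) and 4.64 ± 0.31 with Arg-tRNA_Cys(GCA). The same comparisons chose the members, so their values are a description and carry no test. In sorted bulk cells, fewer cells with the transcript and less of it per cell cannot be told apart.

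In the comparisons the choice did not use, ANKRD1 fell with the Trp mc-tRNA. It had 5.51, 4.54 and 2.44 CPM with Arg-tRNA_Trp(CCA), against 12.9, 11.7 and 9.17 CPM with EGFP(R96W) alone, with no overlap (log2 fold change -1.44 ± 0.27, edgeR adjusted p = 0.000152). With Arg-tRNA_Gln(CUG) it had 3.27, 2.44 and 1.304 CPM, against 1.31, 0.914 and 0.711 CPM with EGFP(R96Q) alone, so the lowest library with the mc-tRNA met the highest without it. That log2 difference of 1.27 ± 0.35 was not called (edgeR adjusted p = 0.141), but it was called without the third library of the mc-tRNA group (1.56, adjusted p = 0.0473) and in DESeq2 (1.26, adjusted p = 0.0141). It was also called in edgeR with a replicate block. The values with Arg-tRNA_His(GUG) were 7.39, 6.82 and 4.05 CPM, against 3.82, 4.06 and 3.48 CPM with EGFP(R96H) alone. They overlapped in 1 library and were not called (0.68 ± 0.27, edgeR adjusted p = 0.200), but were called when only the groups compared were fitted (0.69, edgeR adjusted p = 0.0343). They were also called with a replicate block (edgeR adjusted p = 0.0170).

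The Trp effect on ANKRD1 differed from the Gln and the His effect when the difference itself was tested. The Trp minus Gln difference was -2.71 ± 0.44 on the log2 scale (edgeR adjusted p = 9.22e-05) and the Trp minus His difference was -2.12 ± 0.38 (edgeR adjusted p = 0.000277). The His minus Gln difference, -0.59 ± 0.45, was not called (edgeR adjusted p = 0.638). These were 3 pairs of effects, each adjusted over all genes. Each mc-tRNA was given with 1 reporter only, so in every difference of effects the mc-tRNA and its reporter cannot be told apart. Without mc-tRNA, ANKRD1 averaged 11.2 CPM with EGFP(R96W), 3.79 CPM with EGFP(R96H) and 0.977 CPM with EGFP(R96Q).

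**Figure D2:**
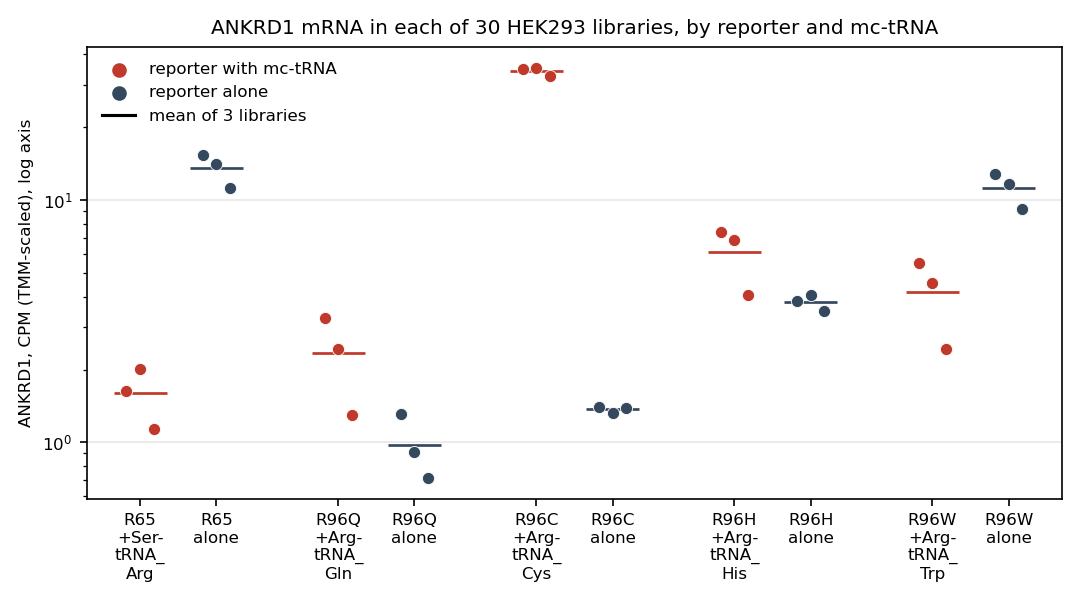
ANKRD1 in each of the 30 libraries, in CPM on a log axis, by reporter, with the mc-tRNA in red to the left of the reporter alone in grey and the mean of 3 libraries as a line. The 3 libraries with Arg-tRNA_Cys(GCA) sit at 32.7 to 35.3 CPM, above all others, and the reporters alone already span 0.711 to 15.3 CPM.

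The order of ANKRD1 levels over the 10 groups began with the EGFP(R96Q) reporter alone, at 0.977 ± 0.304 CPM (SD, n = 3), and EGFP(R96C) alone, at 1.37 ± 0.0469 CPM. Then came Ser-tRNA_Arg(CCG) at 1.59 ± 0.442 CPM, Arg-tRNA_Gln(CUG) at 2.34 ± 0.986 CPM, EGFP(R96H) alone at 3.79 ± 0.290 CPM and Arg-tRNA_Trp(CCA) at 4.16 ± 1.57 CPM. The highest were Arg-tRNA_His(GUG) at 6.09 ± 1.79 CPM, EGFP(R96W) alone at 11.2 ± 1.90 CPM, EGFP(R65) alone at 13.6 ± 2.08 CPM and Arg-tRNA_Cys(GCA) at 34.3 ± 1.39 CPM. Of the 9 pairs of neighbours in this order, 4 did not overlap: EGFP(R96Q) and EGFP(R96C) alone, Arg-tRNA_Gln(CUG) and EGFP(R96H) alone, Arg-tRNA_His(GUG) and EGFP(R96W) alone, and EGFP(R65) alone and Arg-tRNA_Cys(GCA). The other 5 pairs of neighbours overlapped in at least 1 library. The highest group mean was 35.1 times the lowest, against 7.36 times for CCN1, 6.42 for AXL, 5.60 for CCN2, 4.60 for AMOTL2, 3.20 for LATS2, 2.42 for AJUBA, 1.98 for CRIM1 and 1.66 for AMOTL1. The highest ANKRD1 group, Arg-tRNA_Cys(GCA), entered the choice of the members, so these ratios are a description with no test.

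Per kilobase of annotated exon, CCN1, not ANKRD1, was the most abundant of the 9 genes with Arg-tRNA_Cys(GCA), at 45.3 CPM per kb against 17.3 for ANKRD1. AXL was the least abundant, at 0.0373 CPM per kb with Arg-tRNA_Cys(GCA) and 0.0974 with EGFP(R96C) alone. With EGFP(R96C) alone, AMOTL1 led at 11.6 CPM per kb, followed by CCN1 at 9.73, AJUBA at 7.16, CRIM1 at 4.59, AMOTL2 at 4.27, LATS2 at 3.53, CCN2 at 1.93 and ANKRD1 at 0.693. AXL rests on 1 to 42 counts per library, and ANKRD1 on 39 to 1252.

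The secreted proteins CCN1 and CCN2 were both higher with Arg-tRNA_Cys(GCA). CCN1 (ENSG00000142871.16, listed as CYR61; chromosome 1, 85580761 to 85583962, plus strand) had 109, 113 and 111 CPM with it, against 25.7, 24.0 and 21.96 CPM with EGFP(R96C) alone (log2 2.22 ± 0.11). CCN2 (ENSG00000118523.5, listed as CTGF; chromosome 6, 131948176 to 131951373, minus strand) had 16.03, 17.3 and 13.7 CPM with it, against 4.07, 4.76 and 4.68 CPM with EGFP(R96C) alone (1.80 ± 0.12). Neither pair of groups overlapped. With Ser-tRNA_Arg(CCG) the 2 genes went apart: CCN1 had 36.2, 33.2 and 32.5 CPM against 43.8, 41.8 and 46.0 CPM with EGFP(R65) alone (-0.37 ± 0.11), with no overlap. CCN2 had 6.71, 5.79 and 5.35 CPM against 5.38, 4.58 and 4.66 CPM, overlapping in 1 library (0.29 ± 0.13). A gene on the opposite strand shares 8.34% of the CCN2 exon bases, and the strand setting of the counting is not given in the sources used here, so reads there cannot be assigned to either gene with certainty.

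In the comparisons open to a test, CCN1 rose with the His and with the Trp mc-tRNA. It had 37.5, 35.7 and 26.9 CPM with Arg-tRNA_Trp(CCA), against 20.4, 20.6 and 21.3 CPM with EGFP(R96W) alone (log2 0.68 ± 0.11, edgeR adjusted p = 9.93e-06). With Arg-tRNA_His(GUG) it had 25.1, 21.9 and 20.6 CPM, against 15.3, 16.4 and 13.7 CPM with EGFP(R96H) alone (0.58 ± 0.11, edgeR adjusted p = 0.00596). Neither pair overlapped, but the His call was lost without the first library of the mc-tRNA group (edgeR adjusted p = 0.0914) or the third of EGFP(R96H) alone (0.0727). With Arg-tRNA_Gln(CUG) the values were 42.7, 37.9 and 29.2 CPM, against 29.2, 28.1 and 24.9 CPM with EGFP(R96Q) alone, groups that met at 29.2 CPM without overlapping and a difference of 0.42 ± 0.11 that was not called (edgeR adjusted p = 0.0764). It was called without the third library of the mc-tRNA group (0.56, edgeR adjusted p = 0.00298), in DESeq2 (0.42, adjusted p = 0.0228) and when low counts were not filtered (0.41, edgeR adjusted p = 0.000184). It was also called in edgeR with a replicate block. ANKRD1 and CCN1 thus went opposite ways with the Trp mc-tRNA.

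CCN2 passed the threshold of the edgeR fit in none of these 3 comparisons. It had 3.69, 3.26 and 3.69 CPM with Arg-tRNA_Trp(CCA), against 3.23, 3.44 and 2.84 CPM with EGFP(R96W) alone (log2 0.16 ± 0.13, edgeR adjusted p = 0.365). The differences were 0.33 ± 0.12 with Arg-tRNA_Gln(CUG) (edgeR adjusted p = 0.290) and 0.42 ± 0.13 with Arg-tRNA_His(GUG) (edgeR adjusted p = 0.0859), where the groups did not overlap in either case. The His difference was called in DESeq2 (0.42, adjusted p = 0.0453) and when only the groups compared were fitted (0.42, edgeR adjusted p = 0.0405). The 3 differences between these effects were not called for CCN1 or CCN2, and the Trp minus His difference was 0.11 for CCN1 and -0.26 for CCN2 (edgeR adjusted p = 0.690 and 0.363). Without the third library with Arg-tRNA_Trp(CCA), the Trp minus Gln difference of CCN1 was called (0.40, edgeR adjusted p = 0.0341).

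Among the members that feed back on the pathway, AMOTL1, AMOTL2 and LATS2 rose together with the Trp mc-tRNA. LATS2 (ENSG00000150457.8; chromosome 13, 20973032 to 21061547, minus strand) had 33.0, 32.0 and 30.7 CPM with Arg-tRNA_Trp(CCA), against 18.4, 17.8 and 18.3 CPM with EGFP(R96W) alone (log2 0.81 ± 0.08, edgeR adjusted p = 9.04e-10). AMOTL2 (ENSG00000114019.14; chromosome 3, 134355874 to 134375479, minus strand) had 47.3, 44.4 and 34.9 CPM, against 27.8, 25.4 and 23.4 CPM (0.72 ± 0.12, edgeR adjusted p = 1.01e-05). AMOTL1 (ENSG00000166025.17; chromosome 11, 94706431 to 94876753, plus strand) averaged 177 ± 13.2 CPM, against 121 ± 3.19 CPM (SD, n = 3 each; 0.54 ± 0.06, edgeR adjusted p = 4.34e-09). In all 3 genes every library with the mc-tRNA was above every library without it.

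In the edgeR fit the same 3 genes were not called with the Gln or the His mc-tRNA. With Arg-tRNA_His(GUG), LATS2 had 16.6, 17.4 and 17.1 CPM against 17.1, 16.7 and 14.5 CPM with EGFP(R96H) alone, groups that overlapped (log2 0.08 ± 0.09, edgeR adjusted p = 0.702). The Trp effect was larger than the His effect in all 3 when the difference was tested, by 0.73 ± 0.12 for LATS2, 0.62 ± 0.16 for AMOTL2 and 0.52 ± 0.09 for AMOTL1 (edgeR adjusted p = 1.86e-05, 0.00661 and 1.83e-05). It was larger than the Gln effect for LATS2 (0.68 ± 0.12, edgeR adjusted p = 4.27e-05) and AMOTL1 (0.47 ± 0.09, 8.23e-05), while for AMOTL2 the difference of 0.33 ± 0.16 was not called (0.147). It was called with no filter on low counts (0.35, edgeR adjusted p = 0.0184), without the third library with Arg-tRNA_Trp(CCA) (0.45, edgeR adjusted p = 0.0296) and with a replicate block. With Arg-tRNA_Gln(CUG), AMOTL2 had 39.3, 36.4 and 30.8 CPM against 28.8, 27.9 and 24.4 CPM with EGFP(R96Q) alone, which did not overlap and was not called (0.39 ± 0.11, edgeR adjusted p = 0.148). It was called when low counts were not filtered (0.38, edgeR adjusted p = 0.000558) and with a replicate block.

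In the comparisons that chose the members, LATS2 and AMOTL2 were higher with the mc-tRNA in both. LATS2 had 39.8, 40.1 and 37.3 CPM with Ser-tRNA_Arg(CCG), against 25.8, 23.7 and 21.7 CPM with EGFP(R65) alone, and 52.1, 58.5 and 44.4 CPM with Arg-tRNA_Cys(GCA), against 18.3, 18.9 and 21.9 CPM with EGFP(R96C) alone. AMOTL2 had 93.1, 89.3 and 78.1 CPM with Ser-tRNA_Arg(CCG), against 61.2, 65.3 and 50.1 CPM with EGFP(R65) alone. Its values with Arg-tRNA_Cys(GCA) were 104, 96.7 and 81.2 CPM, against 26.7, 22.7 and 27.2 CPM with EGFP(R96C) alone. In these 4 pairs no libraries overlapped, with log2 fold changes of 0.72 ± 0.08 and 1.39 ± 0.08 for LATS2 and 0.56 ± 0.11 and 1.88 ± 0.12 for AMOTL2. AMOTL1 averaged 185 ± 10.7 CPM with Ser-tRNA_Arg(CCG) against 158.2 ± 7.09 CPM (0.22 ± 0.06), and 152.3 ± 9.17 CPM with Arg-tRNA_Cys(GCA) against 116 ± 5.46 CPM (SD, n = 3 each; 0.39 ± 0.06, but -0.15 when scaled to library totals).

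AJUBA (ENSG00000129474.15; chromosome 14, 22971174 to 22982642, minus strand) was higher with Arg-tRNA_Cys(GCA), at 78.3, 78.1 and 71.1 CPM against 44.4, 41.4 and 42.7 CPM with EGFP(R96C) alone (log2 0.82 ± 0.08, but 0.28 when scaled to library totals). In the 4 other comparisons its groups overlapped, and its log2 fold changes lay between -0.11 and 0.09. With Arg-tRNA_Trp(CCA) it averaged 38.3 ± 3.71 CPM against 40.2 ± 0.371 CPM (SD, n = 3 each; -0.07 ± 0.08, edgeR adjusted p = 0.528).

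CRIM1 (ENSG00000150938.9; chromosome 2, 36355926 to 36551135, plus strand) fell with the Trp mc-tRNA. It had 31.3, 27.8 and 31.6 CPM with Arg-tRNA_Trp(CCA), against 39.6, 41.5 and 39.0 CPM with EGFP(R96W) alone, with no overlap (log2 -0.40 ± 0.07, edgeR adjusted p = 1.02e-05). The Trp minus Gln difference was -0.53 ± 0.10 (edgeR adjusted p = 8.60e-05) and the Trp minus His difference, -0.23, was not called (0.0906), but was called with library totals (-0.33, 0.0118). With Arg-tRNA_Cys(GCA) it was lower as well, at 22.5, 23.2 and 19.99 CPM against 34.02, 32.8 and 31.3 CPM with EGFP(R96C) alone (-0.58 ± 0.07). With Arg-tRNA_His(GUG) it had 35.7, 39.0 and 39.8 CPM against 43.1, 42.8 and 43.9 CPM with EGFP(R96H) alone, which did not overlap and was not called (-0.18 ± 0.07, edgeR adjusted p = 0.158).

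AXL (ENSG00000167601.11; chromosome 19, 41219203 to 41261766, plus strand) was near the detection floor. It had 0.149, 0.174 and 0.0228 CPM with Arg-tRNA_Trp(CCA), against 0.283, 0.200 and 0.366 CPM with EGFP(R96W) alone, or 1 to 8 counts against 10 to 16. The fall of -1.26 ± 0.52 on the log2 scale just passed the threshold (edgeR adjusted p = 0.0490) and was called in 5 of 12 alternatives, with adjusted p-values of 0.0269 to 0.252. Without the third library of the mc-tRNA group, which held 1 count, it was -0.78 (adjusted p = 0.252). It was also lost without the first library of that group (0.0592) and without the first (0.0874) or the third (0.156) of EGFP(R96W) alone. With Arg-tRNA_Cys(GCA) it had 0.405, 0.141 and 0.0307 CPM against 0.595, 0.492 and 0.420 CPM with EGFP(R96C) alone, or 1 to 12 counts against 22 to 25.

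**Figure D3:**
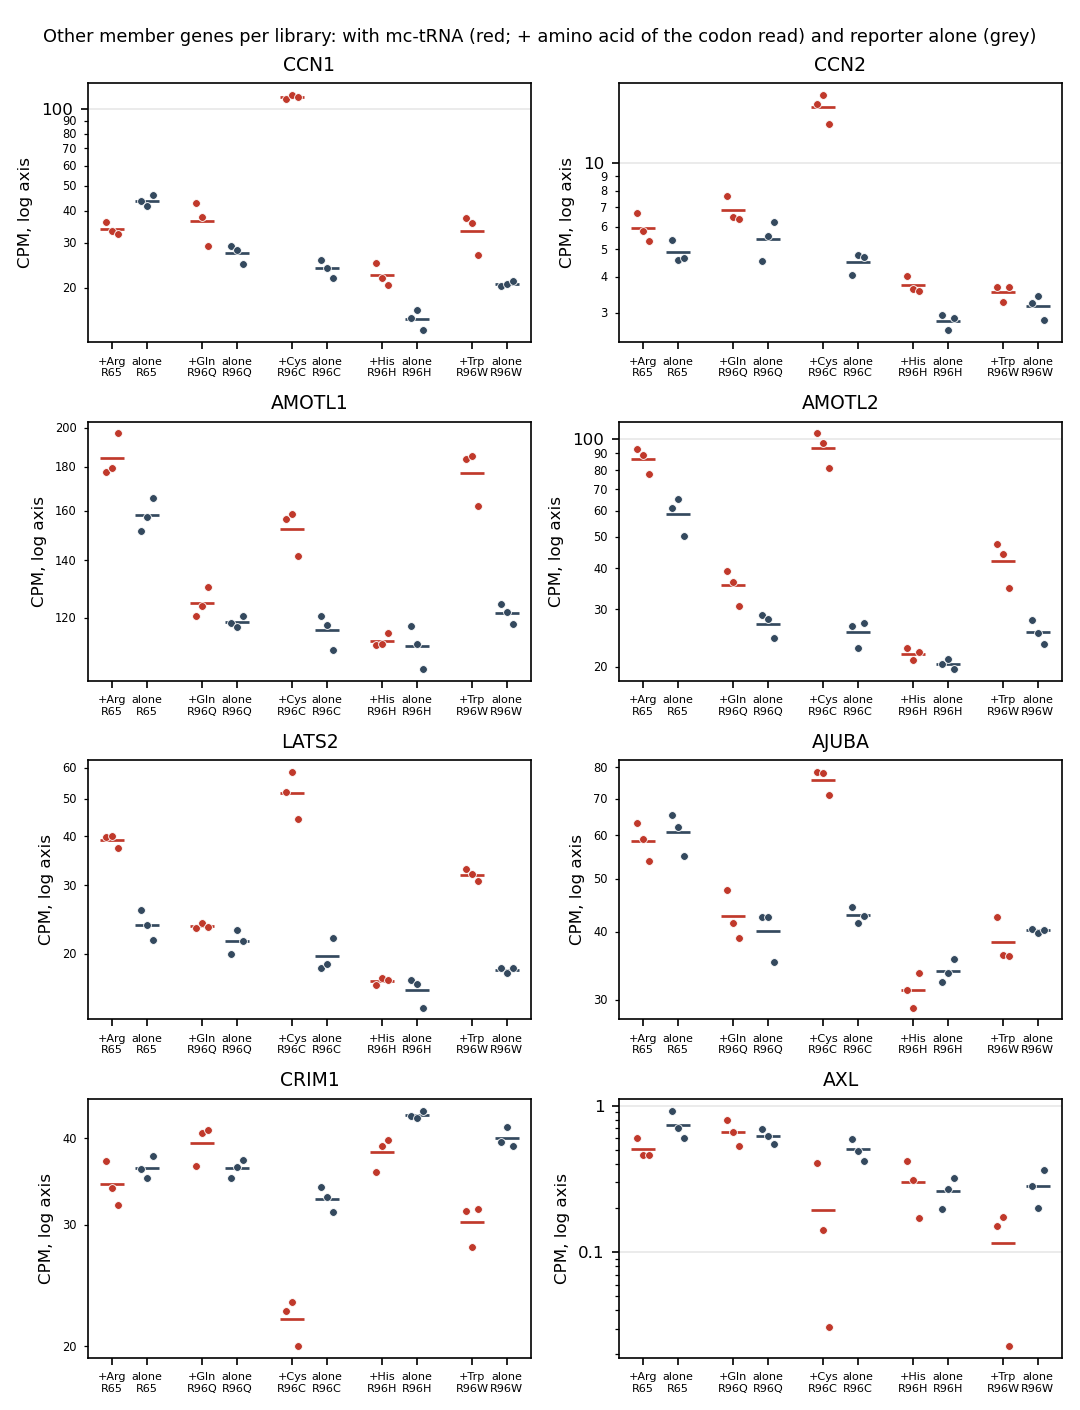
CPM of the 8 other members in every library, on log axes, with the mc-tRNA in red to the left of the reporter alone in grey and group means as lines; the label under a red group gives the amino acid of the codon its mc-tRNA reads, so +Arg is Ser-tRNA_Arg(CCG). LATS2, AMOTL1 and AMOTL2 are higher with Arg-tRNA_Trp(CCA) in every library, and CRIM1 is lower.

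Counted over the 9 members, the Trp mc-tRNA moved 7, of which CCN1, AMOTL1, AMOTL2 and LATS2 rose and ANKRD1, CRIM1 and AXL fell. Of all genes tested in that comparison 42.5% were called, 20.7% as rises and 21.7% as falls. In this comparison 7 members did not overlap between groups, against 47.8% of all genes. With Arg-tRNA_His(GUG) 1 member was called, CCN1, against 2.51% of all genes, and 3 members did not overlap, against 27% of all genes. With Arg-tRNA_Gln(CUG) edgeR called 0 members, against 0.551% of all genes, while 4 had an unadjusted p under 0.05 and DESeq2 called 2, ANKRD1 and CCN1 (adjusted p = 0.0141 and 0.0228). There 4 members did not overlap, against 16.2% of all genes.

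For the differences between effects, 4 members were called for Trp minus Gln (25.3% of all genes) and 4 for Trp minus His (22.8%). For His minus Gln edgeR and DESeq2 called 0 members (0.811% of all genes by edgeR), with 1 at an unadjusted p under 0.05. In the comparisons that chose the members, 6 members passed the threshold with Ser-tRNA_Arg(CCG), where 57.3% of all genes did, and 9 with Arg-tRNA_Cys(GCA), where 60.7% did. Non-overlapping groups were seen for 5 members with Ser-tRNA_Arg(CCG) (66.3% of all genes) and for 9 with Arg-tRNA_Cys(GCA) (61.8%). Nothing is read from these 4 counts.

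Over the 9 members the median log2 fold change was 0.16 for the Trp, 0.10 for the His and 0.13 for the Gln mc-tRNA, and 1.39 for the Cys and -0.05 for the Ser mc-tRNA. Over all genes tested it lay between -0.04 and 0.00 in these 5 comparisons. Scaling to library totals instead of TMM moved the median of all genes to -0.59 with Arg-tRNA_Cys(GCA) and to -0.16 with Arg-tRNA_Trp(CCA). All 9 members had a positive log2 fold change with Arg-tRNA_Gln(CUG), from 0.07 to 1.27, although none was called. Over the alternatives AXL ran from -0.059 to 0.24 there. The share of all genes with a positive value was not computed, and nothing is read from this count.

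**Figure D4:**
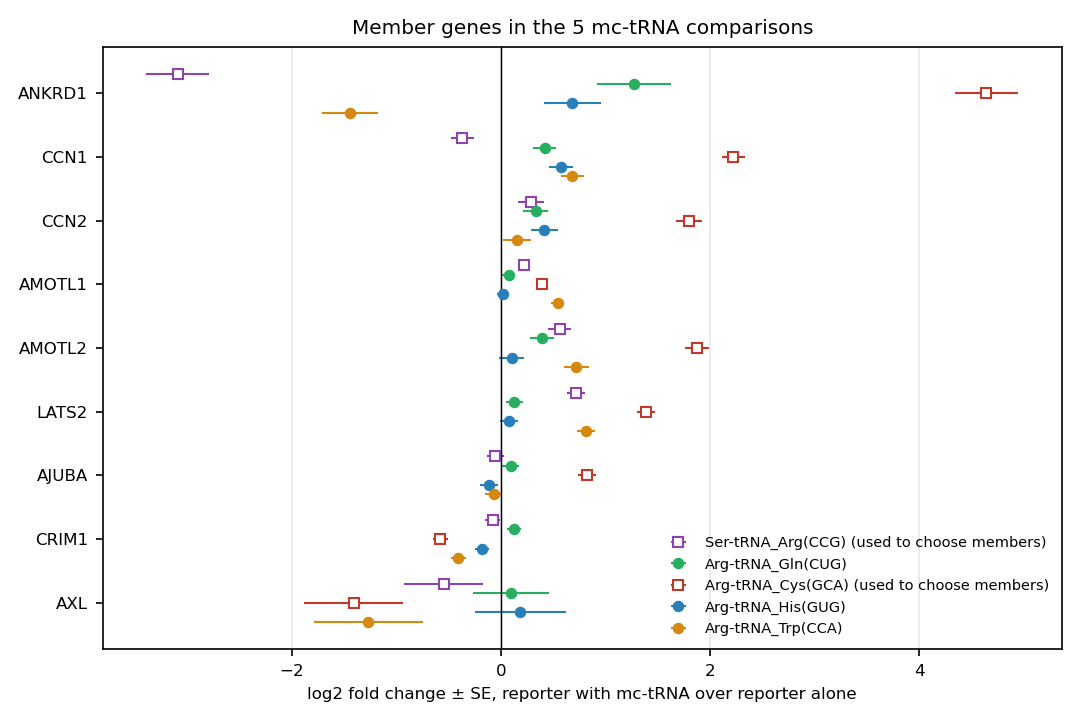
Log2 fold change ± SE of each member, reporter with mc-tRNA over reporter alone, 3 libraries each, in the 5 comparisons; open squares mark the 2 comparisons that chose the members. ANKRD1 runs from -3.09 to 4.64 and is at -1.44 with Arg-tRNA_Trp(CCA), while CCN1 is at 0.68 there; AMOTL1 with Arg-tRNA_Cys(GCA), drawn at 0.39, is at -0.15 when scaled to library totals.

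The members did not share a single pattern over the groups. Over the 10 group means of log2 CPM, Pearson's r was 0.913 between CCN1 and CCN2, 0.928 between AMOTL2 and LATS2 and 0.914 between AMOTL2 and AJUBA. For ANKRD1 it reached only 0.531 with CCN1 and 0.308 with CCN2, and lay between -0.470 and 0.531 over the 8 others. CRIM1 ran against CCN1 (r = -0.851). These are descriptions over 10 means that share the scaling and include the comparisons used to choose the members.

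The 5 other genes whose group means were most like those of ANKRD1, of 22321 ranked, were HTR1D, a serotonin receptor (r = 0.952), DAP3, a mitochondrial ribosomal protein (0.952), PLS1, an actin-bundling plastin (0.948), ENSG00000223495, which has no symbol (0.935), and IARS1, the cytosolic isoleucyl-tRNA synthetase (0.933), each over 10 groups. The 10 groups include the comparisons that chose the members, so the ranking is a description with no test. All 5 genes were lower with Ser-tRNA_Arg(CCG) and higher with Arg-tRNA_Cys(GCA), as ANKRD1 was. The likeness is in shape, not in size. With Arg-tRNA_Cys(GCA) the log2 fold changes of the 5 genes ran from 0.505 to 2.62, against 4.64 for ANKRD1. None of these 5 genes was called in the Trp comparison in which ANKRD1 fell. Their log2 fold changes with Arg-tRNA_Trp(CCA) were 0.07 ± 0.19 for HTR1D, -0.01 ± 0.06 for DAP3, -0.14 ± 0.08 for PLS1, -0.06 ± 0.53 for ENSG00000223495 and -0.05 ± 0.06 for IARS1. ENSG00000223495 averaged 0.0470 to 0.482 CPM over the groups, so its lowest group mean was under the detection floor.

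The reporters without mc-tRNA differed in the members too. Among the 4 EGFP(R96) reporters alone, ANKRD1 averaged 11.2 CPM with EGFP(R96W) and 0.977 CPM with EGFP(R96Q), a ratio of 11.5. For the other members the highest of the 4 means was 1.09 to 2.37 times the lowest. For CCN1, CCN2, AMOTL1, AMOTL2, LATS2, AJUBA and AXL the lowest mean was that of EGFP(R96H), while CRIM1 was highest there, at 43.2 CPM against 32.7 CPM with EGFP(R96C). The 3 EGFP(R96C) libraries among these are also those set against Arg-tRNA_Cys(GCA) in choosing the members, so the values are a description with no test. All members but AMOTL1 passed the threshold of an F-test over the 4 groups, beside 54.7% of all genes, and nothing is read from that count.

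EGFP(R65) alone also entered the choice of the members, and its levels beside the mean of the 4 EGFP(R96) reporters are again a description with no test. ANKRD1 averaged 13.6 CPM with EGFP(R65), against 4.35 CPM over the 4 EGFP(R96) group means (log2 2.31 ± 0.19). AMOTL2 averaged 58.9 CPM against 24.6 CPM (1.26 ± 0.08) and CCN1 43.9 CPM against 21.8 CPM (1.04 ± 0.08). AJUBA (0.64 ± 0.06), AMOTL1 (0.44 ± 0.05), LATS2 (0.34 ± 0.07), CCN2 (0.34 ± 0.10) and AXL (0.93 ± 0.29) were higher as well, and CRIM1 was at -0.06 ± 0.05. The 8 members that were higher passed the threshold, beside 33.6% of all genes called higher and 69% called either way, and nothing is read from that count. The reporter and whatever else set the EGFP(R65) libraries apart cannot be told apart.

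Of 9 genes for YAP, TAZ, TEADs and VGLLs, the co-activators and DNA-binding partners, 8 were tested, and with Arg-tRNA_Trp(CCA) 1 rose and 3 fell, beside 42.5% of all genes called. YAP1 fell to 60.3 ± 1.36 CPM, against 73.7 ± 7.69 CPM with EGFP(R96W) alone (SD, n = 3 each; log2 -0.29 ± 0.07, edgeR adjusted p = 0.000419). TEAD2 fell too (-0.41 ± 0.07, edgeR adjusted p = 4.77e-06), as did VGLL3, a TEAD cofactor (-0.40 ± 0.14, 0.0259), and TEAD3 rose (0.26 ± 0.09, 0.0165). WWTR1, which encodes TAZ, TEAD1 and TEAD4 were not called there (0.07 ± 0.07, -0.04 ± 0.07 and 0.06 ± 0.07, edgeR adjusted p = 0.429, 0.697 and 0.562). The VGLL3 call was lost without the first or second library of either Trp group (edgeR adjusted p = 0.109 to 0.167), and the TEAD3 call without the second library of the mc-tRNA group (0.0595). The TEAD3 call was also lost with library totals (0.13, edgeR adjusted p = 0.236). With the Gln and His mc-tRNAs edgeR and DESeq2 called 0 of the 8, with 1 and 0 at an unadjusted p under 0.05.

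Of 18 Hippo kinases, scaffolds and upstream regulators, 6 rose and 2 fell with Arg-tRNA_Trp(CCA), a share near the 42.5% of all genes called there. AMOT, the founding angiomotin, fell to 185 ± 2.76 CPM, against 316 ± 30.6 CPM with EGFP(R96W) alone (SD, n = 3 each; log2 -0.77 ± 0.07, edgeR adjusted p = 1.07e-10), while its paralogs AMOTL1 and AMOTL2 rose. FRMD6, a scaffold, fell (-0.37 ± 0.08, edgeR adjusted p = 0.000155). LATS1, the paralog of LATS2, rose to 137.7 ± 6.03 CPM against 107 ± 10.1 CPM (0.37 ± 0.08, 0.000247), and LIMD1, a LIM protein of the AJUBA family, rose by 0.39 ± 0.07 (1.54e-05). With the Gln and His mc-tRNAs edgeR and DESeq2 called 0 of the 18, with 3 and 1 at an unadjusted p under 0.05. The median over the 18 with Arg-tRNA_Trp(CCA) was 0.04, beside -0.03 for all genes.

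Of 17 other YAP/TEAD targets 16 were tested, and with Arg-tRNA_Trp(CCA) 6 fell and 1 rose, together a share near the 42.5% of all genes called (20.7% as rises and 21.7% as falls). Their median was -0.26. NT5E, an ecto-nucleotidase, averaged 0.439 ± 0.306 CPM against 1.08 ± 0.164 CPM with EGFP(R96W) alone (SD, n = 3 each; log2 -1.29 ± 0.43, edgeR adjusted p = 0.0164), and TGFB2, a growth factor, 0.583 ± 0.0873 CPM against 0.962 ± 0.225 CPM (-0.72 ± 0.26, 0.0258). The gene that rose was NUAK2, a kinase (0.38 ± 0.14, edgeR adjusted p = 0.0297). The NT5E call was lost without the first (edgeR adjusted p = 0.102) or second (0.0668) library of the mc-tRNA group or the second of EGFP(R96W) alone (0.0615), and the TGFB2 call without the same libraries (0.0869, 0.0807 and 0.166). The NUAK2 call was lost without the first library of the mc-tRNA group (0.195) or the first (0.126) or the third (0.0523) of EGFP(R96W) alone. With Arg-tRNA_His(GUG) 1 of the 16 was called, GADD45A, a stress-response gene, at 88.5 ± 1.36 CPM against 69.3 ± 5.79 CPM with EGFP(R96H) alone (0.35 ± 0.08, edgeR adjusted p = 0.00859). That call was lost without the first library of either group (0.0870 and 0.0609). With Arg-tRNA_Gln(CUG) edgeR and DESeq2 called 0 of the 16, with 1 at an unadjusted p under 0.05.

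In the comparisons that chose the members the same lists are given as levels. With Arg-tRNA_Cys(GCA), YAP1 averaged 131.8 ± 10.6 CPM against 80.1 ± 1.91 CPM with EGFP(R96C) alone (log2 0.72 ± 0.06) and AMOT 92.5 ± 6.22 CPM against 342 ± 23.2 CPM (-1.89 ± 0.08). Scaled to library totals, YAP1 was at only 0.17 and AMOT at -2.43. TEAD2 averaged 14.5 ± 0.843 CPM against 33.8 ± 1.39 CPM, TEAD4 18.6 ± 0.761 CPM against 27.5 ± 0.966 CPM, and THBS1, a secreted YAP target, 4.08 ± 0.958 CPM against 0.205 ± 0.124 CPM (SD, n = 3 each). WWTR1 was at 0.24 ± 0.07 there and TEAD1 at -0.14 ± 0.07, but at -0.31 and -0.69 when scaled to library totals. TEAD2 and TEAD4 were at -1.76 and -1.11 on the log2 scale with that scaling. Of the 16 other targets tested, 9 were higher and 7 lower with Arg-tRNA_Cys(GCA). With Ser-tRNA_Arg(CCG), 5 were higher and 11 lower, and YAP1 averaged 93.2 ± 2.41 CPM against 75.2 ± 2.59 CPM with EGFP(R65) alone (0.31 ± 0.06). TEAD4 (-0.47 ± 0.08) and TEAD2 (-0.78 ± 0.07) were lower there, and WWTR1 and TEAD1 were at 0.04 ± 0.07 and -0.08 ± 0.07. MYOF, a membrane-repair protein and YAP target, averaged 0.819 ± 0.231 CPM with Ser-tRNA_Arg(CCG) against 2.41 ± 0.199 CPM.

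Other genes of the lists with the largest differences in these 2 comparisons are given as log2 fold changes. With Arg-tRNA_Cys(GCA) the Hippo scaffold SAV1 (0.79) and the kinase TAOK3 (0.92) were higher and WTIP, a LIM protein of the AJUBA family, was lower (-0.82). Scaled to library totals, SAV1, TAOK3 and WTIP were at 0.24, 0.38 and -1.36. Among targets GADD45A (1.14) was higher and FJX1 (-2.03) and ARHGEF17 (-1.57) were lower, and VGLL3 was at 0.42. Scaled to library totals, GADD45A was at 0.59, FJX1 at -2.58, ARHGEF17 at -2.12 and VGLL3 at -0.12. Among paralogs and partners MERTK (1.89) and CCN3 (3.08) were higher and ANKRD23 (-1.09) was lower, at 1.34, 2.53 and -1.64 when scaled to library totals. With Ser-tRNA_Arg(CCG) the kinases TAOK1 (0.47) and TAOK3 (0.31) and the target gene TGFB2 (0.71) were higher. The kinase activator MOB1A (-0.56) and VGLL3 (-0.60) were lower. The scaffold WWC1 averaged 17.7 ± 0.980 CPM there, against 35.2 ± 1.66 CPM with EGFP(R65) alone (SD, n = 3 each). Of the paralogs and partners ANKRD23 was at 0.68, GAS6, the ligand of AXL, at -0.69 and CCN3 at -1.29.

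Markers of other cell types moved with the Arg-tRNA_Cys(GCA) comparison. The summed level of 13 such markers was 54.7 to 55.5 CPM with Arg-tRNA_Cys(GCA), against 20.2 to 22.5 CPM with EGFP(R96C) alone, and 18.2 to 28.2 CPM in the other 8 groups. COL1A1, a fibroblast collagen, took most of it, at 47.1 ± 0.618 CPM against 18.0 ± 0.837 CPM (SD, n = 3 each), and LUM, a matrix proteoglycan, was at 3.27 ± 0.337 CPM against 0.269 ± 0.142 CPM. Scaled to library totals, the log2 fold change of COL1A1 was 0.84. Of the 13 genes 6 passed the filter on low counts, 3 of them passed the threshold and all 3 were higher. Of all genes 60.7% passed the threshold there, and nothing is read from this count. KRT14, a keratinocyte keratin, was at 0 in both groups, as it was in 8 of the 10, and CD68, a macrophage marker, was at 0 with Arg-tRNA_Cys(GCA). The part of these markers in the member values was not tested. With Arg-tRNA_Trp(CCA) the sum was 19.0 to 23.7 CPM, against 18.2 to 20.9 CPM with EGFP(R96W) alone. Of the 6 that passed the filter, PDGFRB (1.24) and COL1A1 (0.21) rose there and COL3A1 (-0.98) fell, on the log2 scale, beside 42.5% of all genes called. The PDGFRB call was lost without the first EGFP(R96W) library (edgeR adjusted p = 0.0607) or the third of the mc-tRNA group (0.0609), and the COL1A1 call without the first or second library of either group (0.0576 to 0.355). The COL1A1 call was also lost with library totals and with no filter on low counts (edgeR adjusted p = 0.454 and 0.0603). Of the 6 HEK293 markers KRT8 (0.66) and KRT18 (0.57) rose with Arg-tRNA_Trp(CCA), and NEFL (-0.37) and NEFM (-0.37) were among the 3 that fell, beside the same 42.5%. The NEFM call was lost without the third EGFP(R96W) library (edgeR adjusted p = 0.0546) or the first of the mc-tRNA group (0.0812). The HEK293 markers also differed in the comparisons that chose the members. There 4 of the 6 passed the threshold with Arg-tRNA_Cys(GCA), beside 60.7% of all genes. All 6 passed it with Ser-tRNA_Arg(CCG), beside 57.3% of all genes. With Arg-tRNA_Cys(GCA), KRT8 (1.49) and KRT18 (1.43) were higher and PAX2 (-0.86) and NEFL (-0.84) lower, at 0.94, 0.88, -1.41 and -1.39 when scaled to library totals. With Ser-tRNA_Arg(CCG), NEFM (-1.43) and NEFL (-0.51) were lower, and the 4 others were higher, among them PAX2 and KRT18 (0.51 each). The part of the HEK293 markers in the member values was not tested. With Ser-tRNA_Arg(CCG), PECAM1, an endothelial marker, averaged 1.70 ± 0.243 CPM against 0.159 ± 0.0821 CPM with EGFP(R65) alone, COL3A1 0.269 ± 0.0985 CPM against 0.795 ± 0.173 CPM, and LUM 0.0384 ± 0.0345 CPM, under the detection floor, against 0.301 ± 0.103 CPM (SD, n = 3 each). With the Gln and His mc-tRNAs edgeR and DESeq2 called 0 of either marker list, with 1 HEK293 marker each and 0 others at an unadjusted p under 0.05.

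**Figure D5:**
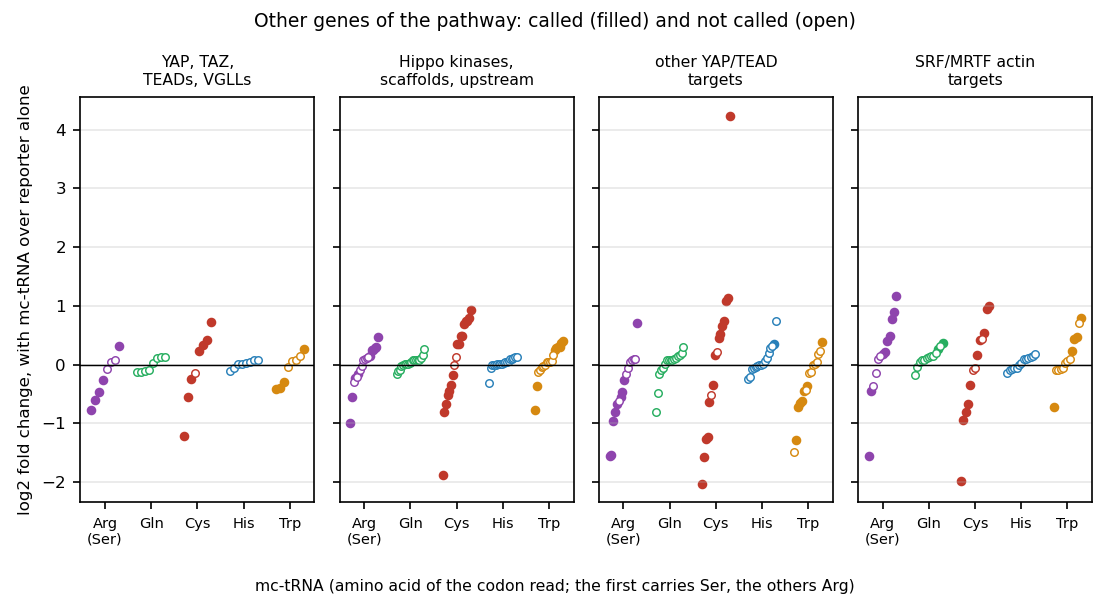
Log2 fold changes of the tested genes of 4 lists (YAP, TAZ, TEADs and VGLLs; Hippo regulators; other YAP/TEAD targets; SRF/MRTF targets) in the 5 mc-tRNA comparisons, 1 point per gene, filled where the gene was called. The label under each column gives the amino acid of the codon the mc-tRNA reads. Filled points with Arg-tRNA_Trp(CCA) reach down to -1.29 (NT5E), and the Gln and His columns hold 2 and 1 filled points.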

How the data were processed

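HEK293 cells sorted for mCherry gave polyA RNA for stranded TruSeq libraries sequenced on a NovaSeq6000, per the labels' protocols. Each library has a table of gene counts as deposited by the authors, with no normalization. The submitters' processing notes name STAR, featureCounts, SAMtools and build hg38. Versions, annotation and strand setting were not given in those sources. Of each table, the 92 ERCC rows entered no library size or test and held at most 106 counts in a library. Gene symbols and positions were taken from GENCODE 29.

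Genes were tested with edgeR 4.0.16 (R 4.3.3; TMM, filterByExpr, robust quasi-likelihood F-test, 10 group means over 30 libraries, 20 residual degrees of freedom, biological coefficient of variation 8.24%) and adjusted over 22321 genes with Benjamini-Hochberg. The 30 replicate pairs differed by 2.08 to 36.7 chi-square per degree of freedom, so none is a repeat of another, and counting floors cover counting error only. Alternatives were RLE and library-total scaling, no filter, DESeq2 1.42.0, a replicate block, fewer groups, and leaving out each library.

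The members and the other lists (YAP, TAZ, TEADs and VGLLs; Hippo regulators; other targets; paralogs; SRF/MRTF targets; markers) were chosen with earlier results of these data known. Named genes are the members, YAP1, WWTR1, TEAD1 and TEAD4, up to 2 of the largest called rises and falls of each list per mc-tRNA comparison, and the 5 genes most correlated with ANKRD1. A gene that this rule names is not reported here. Correlations used log2 CPM with a prior count of 2. Promoters came from RefSeq (GRCh38.p14), and codons were counted in the longest GENCODE 29 coding sequence of each gene.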

Additional observations from a re-analysis of the deposited data

Results flagged for a closer look

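For 5 of the 9 members an mc-tRNA effect differed from another when the difference itself was tested with edgeR over all genes. Of all genes 25.3% were called for Trp minus Gln and 22.8% for Trp minus His. The share called in either was not computed, so nothing is read from the count of members. The Trp minus Gln difference was -2.71 for ANKRD1, 0.47 for AMOTL1, 0.68 for LATS2 and -0.53 for CRIM1 on the log2 scale. The Trp minus His difference was -2.12 for ANKRD1, 0.52 for AMOTL1, 0.62 for AMOTL2 and 0.73 for LATS2. These 8 differences were called in all alternatives run, including each library left out in turn. In each of them the mc-tRNA and its own reporter cannot be told apart.

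ANKRD1 was at -3.09 with Ser-tRNA_Arg(CCG) and at 4.64 with Arg-tRNA_Cys(GCA), and CCN1 at -0.37 and 2.22, with every library on its side of the reporter alone in both genes and comparisons. The difference between these 2 effects was not tested, because the members were chosen with both in view.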

How the results depend on the processing

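Most values kept their direction and their side of the threshold. Counts of called genes and members moved by over 1.5 times in the Gln and His comparisons and in the His minus Gln difference, where edgeR gave 123 genes and 0 members, 560 and 1, and 181 and 0. With no filter on low counts Gln gave 196 and 2 and His minus Gln 366 genes. DESeq2 gave 242 and 2 for Gln, 913 and 2 for His and 504 genes for His minus Gln. Without the EGFP(R65) libraries His gave 369 genes and His minus Gln 78, and with only the groups compared Gln gave 66 genes and His 1911 genes and 3 members. The cause was not tested.

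The replicate numbers share no stated batch. Same-numbered libraries correlated between -0.0772 and 0.140 (4 of 15 pairs over 0.1), and other-numbered ones between -0.189 and 0.102. The main fit did not take same-numbered libraries as pairs, and whether they share a batch was not tested. With a replicate block Gln gave 231 genes and 3 members (ANKRD1, CCN1 and AMOTL2), His 1124 and 2 (CCN1 and ANKRD1, where ANKRD1 had an adjusted p of 0.0170), and His minus Gln 574 genes, and the Trp minus Gln difference of AMOTL2 was called (0.33, adjusted p = 0.0257).

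Leaving out each library in turn gave 11637 to 12354 genes and 5 to 6 members for Ser, 45 to 93 and 0 to 2 for Gln, 12688 to 13140 and 8 to 9 for Cys, 53 to 636 and 0 to 1 for His, and 8112 to 8945 and 6 to 7 for Trp. It gave 4719 to 5922 and 4 to 6 for Trp minus Gln, 4278 to 5169 and 4 in every case for Trp minus His, 18 to 328 and 0 for His minus Gln, 10907 to 12605 and 7 to 8 for the EGFP(R96) reporters, and 14109 to 15598 and 6 to 8 for EGFP(R65) against them.

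Signs turned only for uncalled differences, except AMOTL1, WWTR1 and VGLL3 with Cys. Library totals gave -0.15, -0.31 and -0.12 for these, with Gln -0.0016 for TEAD4, with His -0.0022 for AMOTL1 and -0.018 for WWTR1, with Trp -0.054 for WWTR1 and -0.072 for TEAD4, and for Trp minus His -0.0019 for CCN1 and -0.062 for AJUBA. With no filter WWTR1 was at -0.014 with His. With 1 library left out at a time, AXL ran from -0.23 to 0.38 for His minus Gln, -0.059 to 0.24 for Gln and -0.13 to 0.48 for His. CCN2 ran from -0.027 to 0.20 for His minus Gln, and AMOTL1 from -0.024 to 0.057 for His. TEAD4 ran from -0.011 to 0.065 for Gln, -0.043 to 0.078 for His and -0.011 to 0.11 for Trp, and WWTR1 from -0.034 to 0.039 for His. AJUBA ran from -0.035 to 0.10 for Trp minus His, and TEAD1 from -0.11 to 0.012 for Trp. Depth limits AXL, at 1 to 42 counts per library.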

Other observations

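Genes of the actin cytoskeleton that SRF and its MRTF co-activators drive, which share mechanical inputs with YAP, were called in the Gln comparison, where edgeR called 0 members. With Arg-tRNA_Gln(CUG) 2 of the 13 tested rose, against 0.551% of all genes: FLNA, the actin cross-linker filamin A, at 663 ± 39.0 CPM against 514 ± 6.59 CPM with EGFP(R96Q) alone (SD, n = 3 each; log2 0.37 ± 0.07, edgeR adjusted p = 0.00224), and ACTG1, a cytoplasmic actin (0.27 ± 0.06, 0.0258). The ACTG1 call was lost without any 1 of the 3 libraries of EGFP(R96Q) alone, or without the first or the third of the mc-tRNA group (edgeR adjusted p = 0.0783 to 0.178). With Arg-tRNA_Trp(CCA) 4 rose and 1 fell, against 42.5% of all genes called: ACTA2, smooth muscle actin, rose to 20.3 ± 1.19 CPM against 11.7 ± 1.26 CPM (0.79 ± 0.12, 7.84e-07), the SRF gene rose (0.46 ± 0.07, 6.04e-07), and TAGLN, transgelin, fell to 4.10 ± 0.247 CPM against 6.75 ± 0.352 CPM (-0.72 ± 0.13, 3.14e-05). In the comparisons that chose the members, CNN2 (1.00), TPM1 (0.95), TPM2 (-0.94) and TAGLN (-1.98) differed most with Arg-tRNA_Cys(GCA), and ACTA2 (1.17), CNN2 (0.90), TPM1 (-0.45) and CNN1 (-1.56) with Ser-tRNA_Arg(CCG), as log2 fold changes with no test. With Arg-tRNA_His(GUG) edgeR and DESeq2 called 0 of the 13, with 2 at an unadjusted p under 0.05. Of 11 paralogs and partners of the members tested, 4 rose and 2 fell with Arg-tRNA_Trp(CCA), beside 42.5% of all genes called (20.7% as rises and 21.7% as falls), among them AMOT, LATS1 and LIMD1, which the Hippo regulators also hold. MERTK, a receptor kinase of the AXL family, rose to 45.2 ± 3.05 CPM against 33.6 ± 0.514 CPM (0.43 ± 0.07, 1.82e-06) and CCN3, the paralog of CCN1 and CCN2, to 0.482 ± 0.156 CPM against 0.146 ± 0.0517 CPM (1.70 ± 0.38, 0.000406). With the Gln and His mc-tRNAs edgeR and DESeq2 called 0 of the 11, with 4 and 1 at an unadjusted p under 0.05. With Arg-tRNA_Trp(CCA), ANKRD2, the paralog of ANKRD1, was at 0.0383 ± 0.0260 CPM against 0.214 ± 0.0919 CPM, under the detection floor with the mc-tRNA (edgeR adjusted p = 0.00376).

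The members differ in how often their coding sequences hold the codons that each mc-tRNA anticodon can read. The Cys codons TGC and TGT make up 12.5% of CRIM1 (130 of 1036 codons), 11.2% of CCN2 (39 of 349) and 9.97% of CCN1 (38 of 381), percentiles 99.3, 99.1 and 98.9 among 19762 genes, whose median is 2.05%. ANKRD1, with the largest log2 fold change with Arg-tRNA_Cys(GCA) among the members, has 1.57% (5 of 319), and CRIM1, with the highest share, was lower with it. With TMM scaling CCN2, CCN1 and AJUBA (5.95%, 32 of 538) were higher with Arg-tRNA_Cys(GCA). So were LATS2 (1.47%), AMOTL2 (0.956%) and AMOTL1 (0.628%), while AXL (2.46%) was lower. The Gln codon CAG makes up 8.72% of AMOTL2 and 6.28% of AMOTL1, against a median of 3.19%. The Trp codon TGG is absent from AJUBA. These shares are sequence facts, and their relation to the mRNA levels was not tested.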
